A study of Mus musculus with 12 samples.

Results

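Stromal and bone cells give the marrow its scaffold and many of the signals that keep blood stem and progenitor cells in place. The 39 genes described here mark those cells or are made by them: 12 niche and signalling genes, 19 genes of the extracellular matrix and its turnover, and 8 genes of osteoblasts (bone-forming cells) and osteocytes (osteoblasts enclosed in bone). They were taken by symbol from rows of the array table that name exactly 1 gene, out of 19937 genes with such a row. Of the 39, 36 had a row, and 34 passed the filter on low values and were tested, of 17807 genes tested in all. Fbn1, Runx2 and Spp1 were not analysed here, and Ogn and Mepe stayed below the filter on all 12 arrays.

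The study compared lineage-depleted bone marrow of 6 E4bp4-/- mice with that of 6 E4bp4+/+ mice. E4bp4, also called Nfil3, is a basic leucine zipper transcription factor that natural killer cells need for their development. Marrow was freed from the hindlegs by crushing. Magnetic depletion then took out blood lineage cells by CD2, NK1.1, CD11b, GR1, Ter119 and B220. None of these 6 antigens marks stromal cells, osteoblasts or osteocytes. One GeneChip Mouse Gene 1.0 ST array was run per mouse, and the values are log2 levels. The age and strain of the mice and the part of the gene that was deleted are not given in the sources used here.

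Reticular stromal cells lie around marrow vessels and secrete the chemokine Cxcl12 and the cytokine Kitl, which retain and sustain stem cells. Osteoblasts lay down a matrix of type I collagen, small leucine-rich proteoglycans and Sparc, and mineralise it with the help of Alpl, Ibsp and Phex. Mature bone cells adhere to the bone surface or sit inside it, so how many reach a marrow suspension depends on how the bone is opened.

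Promoter sequences are shown for the 3 genes whose p-value was below 0.05 before adjustment (Omd, Timp3 and Phex) and for a pair of bone genes that hold a named motif (Ibsp and Mmp13). Each is the 250 bases before the transcription start, 5′ to 3′ on the gene's strand, from RefSeq on GRCm38.p6: Omd at chr13:49582212-49582461 (+), Timp3 at chr10:86300162-86300411 (+), Phex at chrX:157415287-157415536 (-), Ibsp at chr5:104299037-104299286 (+) and Mmp13 at chr9:7272264-7272513 (+). Capitals mark TATAAA, the TATA box, and AACCACA, a RUNX site, each on either strand; the first 3 sequences hold neither.
Omd: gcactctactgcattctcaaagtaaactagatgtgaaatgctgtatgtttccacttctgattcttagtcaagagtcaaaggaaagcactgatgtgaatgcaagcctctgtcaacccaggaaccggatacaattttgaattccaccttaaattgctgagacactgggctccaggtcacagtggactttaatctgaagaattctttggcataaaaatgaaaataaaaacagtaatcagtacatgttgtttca
Timp3: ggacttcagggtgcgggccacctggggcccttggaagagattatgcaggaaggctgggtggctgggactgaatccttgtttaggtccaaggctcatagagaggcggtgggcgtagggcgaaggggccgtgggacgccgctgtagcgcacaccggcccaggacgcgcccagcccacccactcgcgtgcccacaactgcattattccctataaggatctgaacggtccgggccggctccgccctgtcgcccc
Phex: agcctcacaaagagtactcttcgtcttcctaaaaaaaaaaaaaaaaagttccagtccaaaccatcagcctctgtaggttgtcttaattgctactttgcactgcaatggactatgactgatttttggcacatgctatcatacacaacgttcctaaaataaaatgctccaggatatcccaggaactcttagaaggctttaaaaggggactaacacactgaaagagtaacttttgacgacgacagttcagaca
Ibsp: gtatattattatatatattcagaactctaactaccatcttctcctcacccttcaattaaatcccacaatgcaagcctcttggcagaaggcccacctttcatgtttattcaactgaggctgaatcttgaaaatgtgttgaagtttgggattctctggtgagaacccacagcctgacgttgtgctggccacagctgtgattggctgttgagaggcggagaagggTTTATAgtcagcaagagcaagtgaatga
Mmp13: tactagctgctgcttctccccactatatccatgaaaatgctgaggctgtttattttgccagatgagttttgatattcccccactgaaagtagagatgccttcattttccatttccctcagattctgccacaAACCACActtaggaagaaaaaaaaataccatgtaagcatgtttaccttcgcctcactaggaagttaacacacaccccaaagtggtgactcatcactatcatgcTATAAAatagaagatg

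The same windows were found for 29 of the 39 genes (35 windows, since 6 genes have more than 1 start) and searched on both strands. The E4BP4 sites TTACGTAA and TTATGTAA were found in 0 of the 35 windows, against 0.113% and 0.819% of 32851 windows of all genes. TATAAA was found in 12 of the 35 (11 genes, since overlapping windows of Tnc both hold it), against 12.4% of all windows. In Ibsp it lies 28 bases before the start in reverse orientation, the capitals in its sequence above. AACCACA was found in 4 of the 35, against 4.40% of all windows, and in Mmp13 it begins 119 bases before the start. A match says only that the letters are there, and a missing match says nothing about the factor.

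Arrays were checked before the members were compared. Nfil3 was at 6.34, 6.38 and 6.92 (lowest, median and highest) in E4bp4-/- marrow, against 6.94, 7.11 and 7.66 in E4bp4+/+ marrow, with no overlap. In the limma fit its difference was -0.68 ± 0.13 log2 (SE, n = 6 each), with an adjusted p of 0.14. E4bp4-/- replicate 1 stood apart: Xist was at 6.08 there, against at least 12.10 on the other arrays. It was also the highest array for the 3 other sex-linked genes tested, all Y-linked, which is the pattern of a male among females. Whether sex has a part in the other values of this array was not tested. The mean of 13 tested genes of lineage-marked cells (mostly granulocyte and B cell genes) was 9.08 there, the highest of the arrays. This list mean ran from 7.16 to 9.08 in E4bp4-/- and from 7.15 to 7.98 in E4bp4+/+ arrays. The progenitor genes Kit, Cd34, Flt3, Meis1, Gata2, Cebpa and Myb, which the depleted fraction is meant to hold, had a list mean of 10.05 to 10.52 in E4bp4-/- and 9.94 to 10.25 in E4bp4+/+ arrays.

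Across the 34 tested genes, the directions were counted by role. Of the 12 niche genes, 8 were higher in E4bp4-/- marrow and 4 lower, with a median difference of 0.08 log2. Without Kitl and Lepr, each dim on 11 of 12 arrays and left out after their values were seen, 7 of 10 were higher and the median was 0.11. Of the 17 tested matrix genes 16 were lower and only Timp3 was higher, with a median of -0.19, and all 5 tested osteoblast genes were lower, with a median of -0.37. Over all genes tested, 41.2% were lower and the median difference was 0.02. Genes of blood cells ran opposite to the matrix and osteoblast genes. All 7 progenitor genes were higher, with a median difference of 0.17, and 5 of them (71.4%) were under an unadjusted p of 0.05, against 9.47% of all genes. Of the 13 lineage-marked genes 11 were higher, with a median of 0.27, and 1 was under that p. E4bp4-/- replicate 1 was the highest array for 6 of the 7 and 10 of the 13. Their part in the lower matrix and osteoblast values was not tested. The directions are counts of genes that share arrays and cells, not of independent results.

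None of the 34 passed a Benjamini-Hochberg adjusted p of 0.05 in limma, and 0% of the 29541 transcript clusters tested did, although 4391 clusters had an unadjusted p under 0.05. The smallest adjusted p of the 34 was 0.249. At an unadjusted p under 0.05, Omd and Phex were lower (5.88% of the 34, against 5.72% of all genes) and Timp3 was higher (2.94%, against 9.47%). With all 12 arrays these shares were near or below the background. The arrays of the genotypes overlapped for all 34, while 0.73% of all genes lay wholly lower and 0.775% wholly higher in E4bp4-/- marrow. The balance of directions over all genes depended on the scaling: of the genes under that p, 62.4% were higher with the deposited values. That share was 51.6% under quantile normalisation and 21.8% where arrays were centred on their medians. Under both scalings 16 of 17 matrix and 5 of 5 osteoblast genes were lower, with niche genes at 4 and 5 of 12. With 1 array left out, the lower matrix genes numbered 13 to 16 and the lower osteoblast genes 4 to 5. In bulk marrow, fewer cells of a type and less RNA per cell cannot be told apart.

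**Figure D1:**
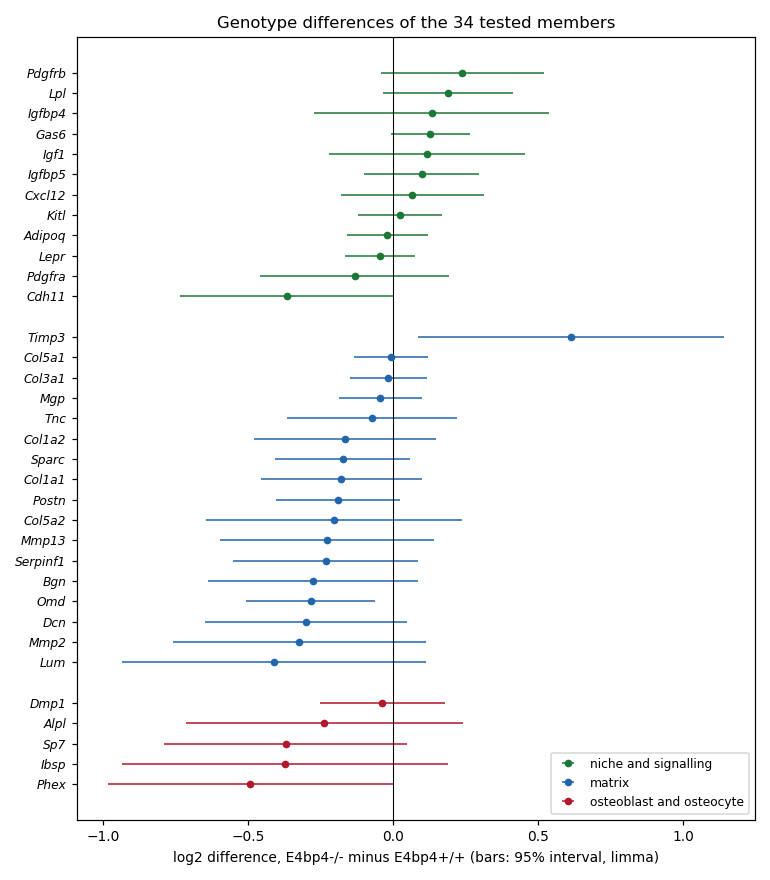
Difference in log2 level, E4bp4-/- minus E4bp4+/+ (x axis), for the 34 tested genes (y axis), with 95% intervals from limma, coloured by role. Intervals of Timp3, Omd and Phex exclude 0, and 16 of 17 matrix and 5 of 5 osteoblast genes lie left of 0.

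Of the defining niche factors, Cxcl12 was well measured and Kitl and Lepr were dim. Cxcl12 was at 6.45, 6.74 and 7.28 (lowest, median and highest) in E4bp4-/- arrays, against 6.50, 6.74 and 6.83 in E4bp4+/+ arrays. The medians were nearly equal, and the 1 high array was E4bp4-/- replicate 1. The difference was 0.07 log2 with a 95% interval of -0.18 to 0.31 (limma adjusted p 0.816; exact permutation p 0.684, two-sided). Without that array it was -0.03.

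Kitl, the ligand of the receptor Kit, ran from 4.67 to 5.09 (median 4.77) in E4bp4-/- and from 4.68 to 4.85 (median 4.82) in E4bp4+/+ arrays. Lepr, the leptin receptor that marks perivascular stroma, ran from 4.69 to 4.90 (median 4.79) and from 4.68 to 4.97 (median 4.86). Both lay below their array's 20th percentile, 4.93 to 4.99, on 11 of 12 arrays, so they passed the filter through a single array each. A difference in them was not detectable at this signal. Adipoq, an adipokine that marks fat-primed stroma, differed by -0.02 ± 0.064 log2 (SE).

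Among the other niche genes, Gas6, Pdgfrb, Lpl and Cdh11 had the lowest p-values. Gas6, a ligand of TAM receptor kinases, was at 6.56, 6.72 and 6.94 in E4bp4-/- arrays, against 6.44, 6.62 and 6.70 in E4bp4+/+ arrays, a difference of 0.13 ± 0.063 log2 (limma adjusted p 0.359; exact permutation p 0.0563). The genotypes overlapped, with E4bp4-/- replicate 1 highest and E4bp4+/+ replicate 6 lowest. Pdgfrb, a receptor of platelet-derived growth factor on pericytes and stroma, was at 8.18, 8.35 and 9.06, against 8.01, 8.27 and 8.35, a difference of 0.24 ± 0.13. Its value of 9.06 was that of E4bp4-/- replicate 1, and without that array the difference was 0.12.

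Lpl, lipoprotein lipase, was at 5.82, 5.85 and 6.40 in E4bp4-/- arrays, against 5.54, 5.78 and 5.95 in E4bp4+/+ arrays, a difference of 0.19 ± 0.10 log2, and 0.10 without E4bp4-/- replicate 1. Cdh11, a cadherin of osteoblasts and mesenchymal cells, ran the other way. It was at 7.93, 8.18 and 8.52, against 8.11, 8.54 and 9.26, a difference of -0.37 ± 0.17 (limma adjusted p 0.337; exact permutation p 0.0628). Its highest array was E4bp4+/+ replicate 5, without which the difference was -0.23.

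Igf1 and its binding proteins Igfbp4 and Igfbp5 were higher by 0.12 ± 0.16, 0.13 ± 0.19 and 0.10 ± 0.091 log2, each less than the spread between arrays of a genotype. Igf1 reached 7.21 and Igfbp4 10.57 on E4bp4-/- replicate 1. Without that array, Igf1 and Igfbp4 differed by -0.04 and -0.02. Pdgfra, the other receptor of platelet-derived growth factor, differed by -0.13 ± 0.15. E4bp4-/- replicate 1 was the highest of the 12 arrays for 7 of the 12 niche genes (Cxcl12, Kitl, Igf1, Igfbp4, Gas6, Pdgfrb and Lpl), and for 18.4% of all genes tested. The niche median without it was -0.02 log2, with 7 of the 11 genes then tested lower. The part of the lineage-marked cells' genes in these values was not tested.

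**Figure D2:**
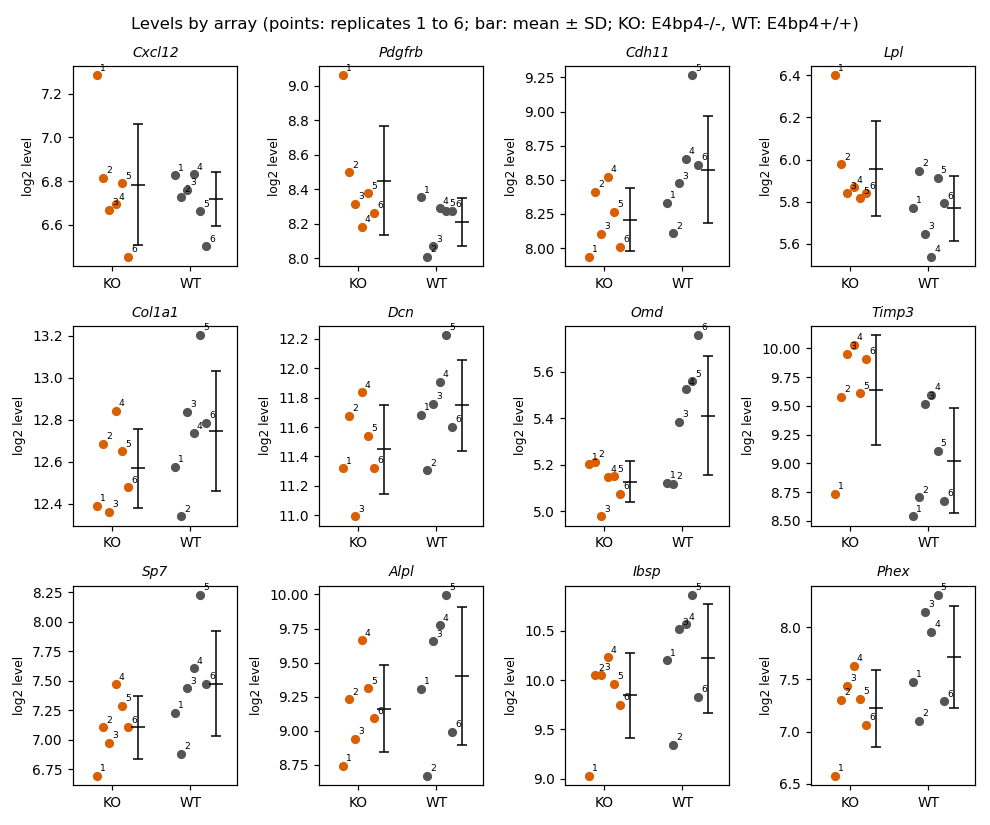
Log2 level (y axis) of 12 genes on each array, with E4bp4-/- (KO) left of E4bp4+/+ (WT); points carry their replicate number and bars give mean ± SD (n = 6 each). Replicate 1 is the highest E4bp4-/- array for Cxcl12, Pdgfrb and Lpl and the lowest for Cdh11, Timp3, Sp7, Alpl, Ibsp and Phex.

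Fibrillar collagens made up the core of the matrix genes. Col1a1, which encodes the main chain of bone collagen, was at 12.36, 12.56 and 12.84 in E4bp4-/- arrays, against 12.34, 12.76 and 13.20 in E4bp4+/+ arrays. The ranges overlapped almost wholly, with E4bp4+/+ replicates 5 and 2 at the top and the bottom. The difference was -0.18 ± 0.13 log2 (95% interval -0.46 to 0.10; limma adjusted p 0.531), and -0.09 without E4bp4+/+ replicate 5. Its partner chain Col1a2 differed by -0.17 ± 0.14 and Col5a2, a chain of the type V collagen that joins type I fibrils, by -0.20 ± 0.20. Col3a1 and Col5a1 differed by -0.02 ± 0.061 and -0.01 ± 0.059, nearly level.

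The small leucine-rich proteoglycans among the members, which bind collagen fibrils, had differences of -0.41 to -0.28 log2 where tested. Fmod (fibromodulin), of the same family but not a member, was nearly level at 0.02 ± 0.085. Dcn (decorin) was at 10.99, 11.43 and 11.84 in E4bp4-/- arrays, against 11.31, 11.72 and 12.23 in E4bp4+/+ arrays. The ranges overlapped widely, and the difference was -0.30 ± 0.16 (limma adjusted p 0.398; exact permutation p 0.126). Lum (lumican) differed by -0.41 ± 0.24 and Bgn (biglycan) by -0.28 ± 0.17, each with an interval that spans 0.

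Omd, osteomodulin, is a proteoglycan of mineralised bone and had the lowest p of the 34. It was at 4.98, 5.15 and 5.21 in E4bp4-/- arrays, against 5.12, 5.46 and 5.76 in E4bp4+/+ arrays. E4bp4+/+ replicates 3 to 6 lay above every E4bp4-/- array, while replicates 1 and 2 lay among them. The difference was -0.28 ± 0.10 log2 (95% interval -0.51 to -0.06; limma p 0.0165, adjusted p 0.249; exact permutation p 0.0368). All E4bp4-/- values were within 0.3 of their array's 20th percentile, where a low signal can understate a difference. Ogn, the neighbouring proteoglycan osteoglycin, ran from 4.65 to 4.80 and from 4.73 to 4.90, below the filter on every array.

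Timp3, a matrix-bound inhibitor of metalloproteinases, was the exception among the matrix genes. It was at 8.73, 9.76 and 10.03 in E4bp4-/- arrays, against 8.54, 8.90 and 9.59 in E4bp4+/+ arrays. E4bp4-/- replicate 1 lay at the bottom of its group. The other E4bp4-/- arrays, from 9.58 upward, lay above every E4bp4+/+ array, except that E4bp4-/- replicate 2 was just below E4bp4+/+ replicate 4. The difference was 0.61 ± 0.24 log2, or 1.53-fold (95% interval 0.09 to 1.14; limma p 0.0262, adjusted p 0.282; exact permutation p 0.0368). Without E4bp4-/- replicate 1 it was 0.79, with an adjusted p of 0.186.

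The proteinases Mmp2 and Mmp13, which cut denatured and fibrillar collagen, differed by -0.32 ± 0.20 and -0.23 ± 0.17 log2. Postn, periostin of the bone surface, was at 6.36, 6.55 and 6.82 in E4bp4-/- arrays, against 6.53, 6.82 and 6.99 in E4bp4+/+ arrays, a difference of -0.19 ± 0.098 (limma adjusted p 0.384; exact permutation p 0.102). Sparc, a collagen-binding glycoprotein, and Serpinf1, a secreted serpin of bone matrix, differed by -0.17 ± 0.11 and -0.23 ± 0.15. Tnc (tenascin C) and Mgp, an inhibitor of calcification, were nearly level at -0.07 ± 0.13 and -0.04 ± 0.065. The 95% intervals of all 7 genes spanned 0.

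Of the 3 roles, osteoblast genes had the largest median difference and the widest spread. Sp7, the transcription factor osterix that commits cells to the osteoblast fate, was at 6.69, 7.10 and 7.47 in E4bp4-/- arrays, against 6.88, 7.45 and 8.23 in E4bp4+/+ arrays. Only E4bp4+/+ replicates 4 and 5 lay clearly above all E4bp4-/- arrays. The difference was -0.37 ± 0.19 log2 (95% interval -0.79 to 0.05; limma adjusted p 0.388; exact permutation p 0.108). It was -0.22 without E4bp4+/+ replicate 5.

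Phex, an endopeptidase of osteoblasts and osteocytes needed for phosphate balance, was at 6.57, 7.31 and 7.63 in E4bp4-/- arrays, against 7.11, 7.72 and 8.31 in E4bp4+/+ arrays. Its difference, -0.49 ± 0.23 log2, had a 95% interval of -0.98 to -0.0012 (limma p 0.0495, adjusted p 0.336; exact permutation p 0.0823). E4bp4+/+ replicates 3, 4 and 5 lay above all E4bp4-/- arrays and E4bp4-/- replicates 1 and 6 below all E4bp4+/+ arrays. The difference was -0.36 without E4bp4-/- replicate 1 and -0.37 without E4bp4+/+ replicate 5. Its unadjusted limma p rose above 0.05 in both cases.

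Ibsp, bone sialoprotein, which nucleates mineral, was at 9.03, 10.01 and 10.23 in E4bp4-/- arrays, against 9.35, 10.36 and 10.87 in E4bp4+/+ arrays. Alpl, the alkaline phosphatase that frees phosphate for mineralisation, was at 8.74, 9.16 and 9.66, against 8.67, 9.48 and 10.00. In both genes the lowest E4bp4-/- array was replicate 1, and the E4bp4+/+ arrays ran from replicate 2 at the bottom to replicate 5 at the top. The differences were -0.37 ± 0.26 for Ibsp (limma adjusted p 0.513; exact permutation p 0.223; -0.21 without E4bp4-/- replicate 1) and -0.24 ± 0.22 for Alpl (0.633 and 0.344; -0.12 without E4bp4+/+ replicate 5). Dmp1, a matrix phosphoprotein of osteocytes, differed by -0.04 ± 0.10, and Mepe, another osteocyte phosphoprotein, was below the filter at 4.41 to 4.59 over both genotypes.

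Among E4bp4+/+ arrays the same replicates were at the top and the bottom for most matrix and osteoblast genes, while among E4bp4-/- arrays the lowest replicate differed between these roles. E4bp4+/+ replicate 5 was the highest of the 12 arrays for 11 of 17 matrix genes (Col1a1, Col1a2, Col3a1, Col5a1, Col5a2, Sparc, Dcn, Lum, Bgn, Mmp2 and Serpinf1) and for all 5 osteoblast genes, while it was highest for 6.13% of all genes. E4bp4+/+ replicate 2 was the lowest E4bp4+/+ array for 12 of the 17 and all 5. Among E4bp4-/- arrays, replicate 4 was the highest for 11 of the 17 and all 5, and replicate 3 the lowest for 10 of the 17 but 0 of the 5. E4bp4-/- replicate 1 was the lowest of its genotype for 4 of 5 osteoblast and 3 of 17 matrix genes, yet the highest for 9 of 12 niche genes.

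The median deviation of osteoblast genes from their own means ran from -0.60 (replicate 1) to 0.20 (replicate 4) in E4bp4-/- arrays and from -0.41 (replicate 2) to 0.83 (replicate 5) in E4bp4+/+ arrays. Matrix genes ran from -0.29 to 0.18 and from -0.32 to 0.39. Niche genes ran from -0.11 to 0.28 and from -0.11 to 0.03. Osteoblast genes had a median SD within genotypes of 0.42 log2, against 0.099 for all genes, 0.27 for matrix and 0.20 for niche genes.

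**Figure D3:**
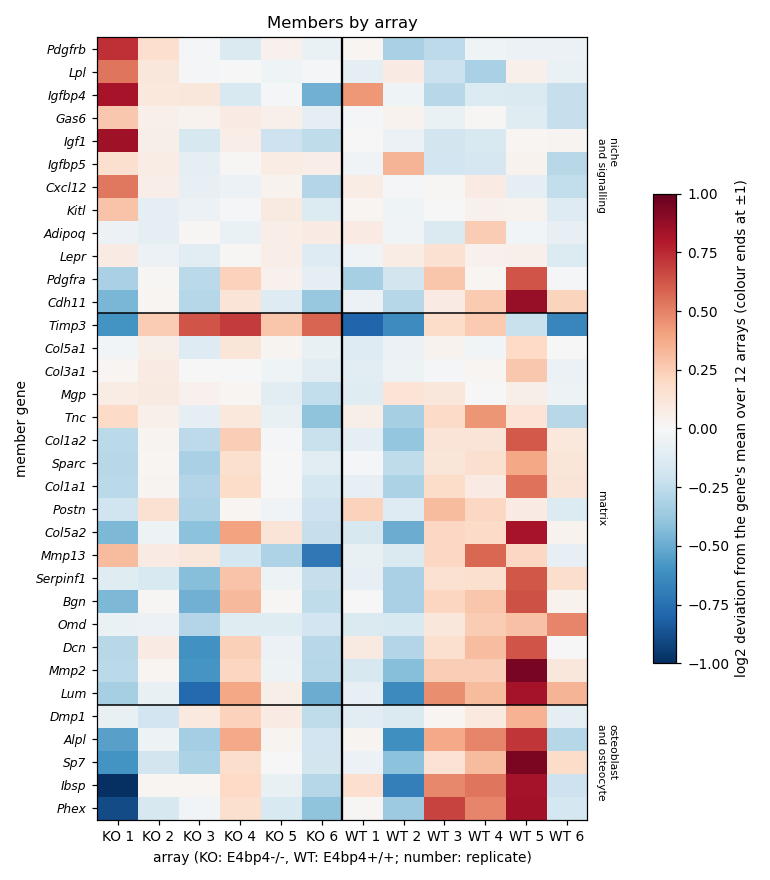
Log2 deviation of each tested gene (rows, by role) from its mean over the 12 arrays (columns; E4bp4-/-, KO, left of E4bp4+/+, WT). E4bp4+/+ replicate 5 is high for most matrix and osteoblast genes, and E4bp4-/- replicate 1 is high for 9 of 12 niche genes and low for all 5 osteoblast genes.

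The role medians rested in part on those arrays. Without E4bp4-/- replicate 1 the osteoblast median was -0.21 log2 and the matrix median -0.14. Without E4bp4+/+ replicate 5 they were -0.22 and -0.11, and the median of all 34 was -0.06 in place of -0.15. With both arrays left out they were -0.08 and -0.10. Leaving out E4bp4+/+ replicate 2, the low array, moved them the other way, to -0.49 and -0.26, and put 13 of the 34 genes (38.2%) lower at an unadjusted p under 0.05, in place of 2, where 6.31% of all genes were. Without E4bp4-/- replicate 4, the high array of its genotype, there were 8 (23.5%), against 5.60% of all genes. Both arrays were known as the low and the high array from these same genes, so leaving either out widens the differences. The higher shares are therefore not separate support for a genotype difference. In both cases no adjusted p of the 34 genes was below 0.149.

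**Figure D4:**
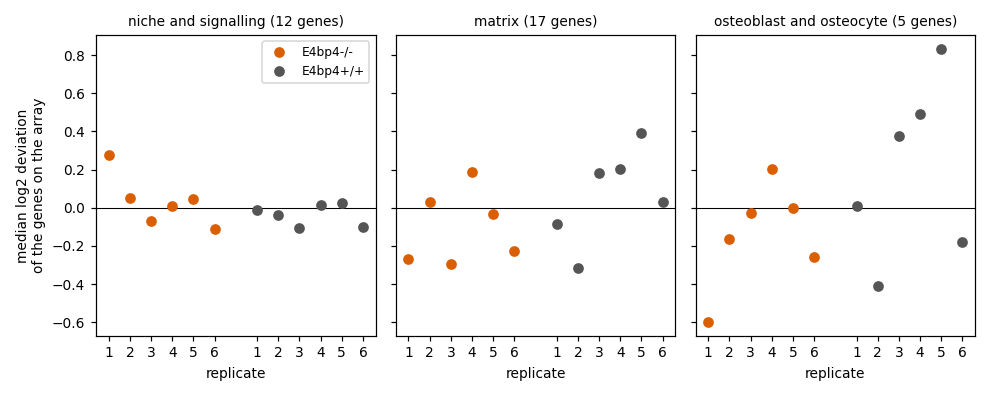
Median log2 deviation of the genes of each role (y axis) on each array (x axis: replicate number; E4bp4-/- left of E4bp4+/+). Osteoblast genes span -0.60 to 0.20 in E4bp4-/- and -0.41 to 0.83 in E4bp4+/+ arrays, and the genotypes overlap in all 3 panels.

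Further genes of the same compartments, listed by role with earlier results of these data known, were compared in the same fit. Of 21 tested matrix genes (other collagens, fibulins, collagen-processing enzymes and others), 9 were lower and 12 higher in E4bp4-/- marrow, with a median of 0.02 log2. At an unadjusted p under 0.05, 2 were lower and 2 higher (9.52% each, against 5.72% and 9.47% of all genes). Mmp14, a membrane-bound collagenase, was lower at -0.27 ± 0.11, while Col4a2, a basement membrane chain, and Col6a3 were higher at 0.14 ± 0.044 and 0.10 ± 0.042. E4bp4+/+ replicate 5 was the highest array for 9 of the 21. Whether these differ from the 17 matrix genes above was not tested.

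Of 13 other osteoblast genes tested, 6 were lower and 7 higher, with a median of 0.01 log2. Under that p there was 1 each way (7.69%, against 5.72% lower and 9.47% higher of all genes). Phospho1, a phosphatase of matrix vesicles that starts mineralisation, was at 7.38, 7.96 and 8.24 in E4bp4-/- arrays, against 8.0, 8.34 and 8.78 in E4bp4+/+ arrays, a difference of -0.44 ± 0.16 (limma adjusted p 0.255). Fgf23, the phosphate-regulating hormone of osteocytes, differed by 0.17 ± 0.047 (limma adjusted p 0.191), and Tnfsf11, the osteoclast-inducing cytokine RANKL, by 0.10 ± 0.051 (0.393). E4bp4+/+ replicate 5 was the highest array for 6 of the 13. Of 15 other niche genes tested, 12 were higher, with a median of 0.04, and 2 (13.3%) were higher under that p. Jag1, a Notch ligand, and Grem1, a BMP antagonist, differed by 0.17 ± 0.059 and 0.15 ± 0.056. None of the genes in these 3 lists passed the adjusted threshold.

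Markers of cells that crushed bone could add were measured beside them. Osteoclast genes, from the cells that resorb bone, had a median difference of 0.07 log2 over 10 genes. At an unadjusted p under 0.05, 1 was lower and 3 higher (10% and 30%, against 5.72% and 9.47% of all genes). Their list means were 6.48 to 6.69 in E4bp4-/- and 6.50 to 6.58 in E4bp4+/+ arrays. Of these 10 genes, 4 were lower and 6 higher. The lower ones included Ctsk, the osteoclast collagen-cutting cathepsin, at -0.34 ± 0.098 (limma adjusted p 0.201). Acp5, the acid phosphatase of osteoclasts, was also lower at -0.27 ± 0.15 (0.420). The higher ones included Nfatc1 and Oscar, at 0.22 ± 0.089 (0.294) and 0.13 ± 0.058 (0.321). Cartilage genes had a median of 0.08 over 9 genes and list means of 6.36 to 6.51 and 6.23 to 6.49. Endothelial genes split, 4 of 10 lower and 6 higher, with 2 (20%) and 3 (30%) under that p. Stab2 of sinusoids differed by -0.24 ± 0.061, and Esam and Tek by 0.28 ± 0.079 and 0.19 ± 0.050. Skeletal muscle genes lay within 0.13 log2 of 0 in all 9 cases, and pericyte and smooth muscle genes had a median of 0.03 over 7. Over 5 genes of mature adipocytes the median was 0.06. Their part in the stromal values was not tested.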

How the data were processed

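Values are log2 levels per transcript cluster, made by the authors in GeneSpring GX version 11 with RMA16, per the series design text; the log2 scale was read from their range, 3.18 to 14.33. Such normalisation removes shifts that most genes share. The build and probe annotation behind them are not given in the sources used here. Scanner files were not used.

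All 12 columns were matched to samples by accession and grouped by genotype. Of 34760 transcript clusters, 29541 were at or above the 20th percentile of 1 or more arrays, and limma version 3.58.1 under R version 4.3.3 tested genotype alone (lmFit, eBayes), with Benjamini-Hochberg adjustment over all of them. Platform annotation gave 1 gene to 21640 clusters, several to 1321 and none to 11799; a gene with several rows took the one of highest mean, and each member had 1 row. RefSeq names matched 21553 clusters and changed 0 symbols. An exact permutation test over arrays, two-sided, was added for single genes.

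The members and lists were chosen with earlier results of these data known, so lists are given as counts and medians. Values in each genotype are given for the 4 genes of lowest p per role and for genes differing by 0.5 log2 or more. They are also given for Cxcl12, Kitl, Lepr, Col1a1, Runx2 and Sp7 where measured. Up to 3 genes of lowest p are named from other lists, and Fmod and Acp5 were named beside them. The number of arrays, 6 per genotype, limits the precision. The fit was tested on simulated data. Alternatives changed the filter, the scaling, the variance model, array weights, replicate number as a block, the row chosen, and arrays left out.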

Additional observations from a re-analysis of the deposited data

Results flagged for a closer look

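The highest or lowest array of a genotype is listed here if more than 0.625 of the genotype's range separated it from the next array. This held for 11 of 140 sets of 6 arrays (about 1 in 20, or 7, would do so by chance), and 6 of the 11 were E4bp4-/- replicate 1.

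Among the stromal and bone genes, E4bp4-/- replicate 1 was far above the other E4bp4-/- arrays for Igf1 (7.21), Lpl (6.40) and Pdgfrb (9.06), and far below them for Timp3 (8.73). E4bp4+/+ replicate 5 was apart for Col3a1 (7.91) and E4bp4+/+ replicate 1 for Igfbp4 (10.18).

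Among the other genes named or looked at with them, Camp, a granule gene of neutrophils, was apart at 8.75 in E4bp4-/- replicate 1 and at 7.30 in E4bp4+/+ replicate 2. Flt3 was apart at 10.01 in E4bp4-/- replicate 1, Cd79a at 5.38 and Nfil3 at 7.66 in E4bp4+/+ replicate 1.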

How the results depend on the processing

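None of the members passed the adjusted threshold under any of the 21 alternatives; the smallest adjusted p of a member, 0.149, was that of Omd without E4bp4+/+ replicate 2. Over all transcript clusters 5 passed with array weights and 0 to 4 with 1 array left out, in place of 0. Members under an unadjusted p of 0.05 and lower in E4bp4-/- numbered 2; there were 0 with a 50th percentile filter, at which Omd was not tested (8.14% of all genes), 4 after quantile normalisation (11.8% of members, 5.60% of all genes), 4 after median centring (11.8% and 12.4%), 1 without E4bp4-/- replicate 1 and E4bp4+/+ replicate 5 together (3.03% and 4.85%), and 1 to 13 with 1 array left out; the highest counts were 13 without E4bp4+/+ replicate 2 (38.2% and 6.31%) and 8 without E4bp4-/- replicate 4 (23.5% and 5.60%). Those higher numbered 1, and 0 to 2 with 1 array left out. Niche genes that were lower numbered 4, and 2 with a 50th percentile filter, at which fewer genes were tested. With 1 array left out they numbered 3 to 7, while lower matrix genes numbered 13 to 16 and lower osteoblast genes 4 to 5. Median differences with 1 array left out ran from -0.02 to 0.11 log2 for niche, -0.26 to -0.11 for matrix and -0.49 to -0.21 for osteoblast genes. Cxcl12 turned to -0.045 with those 2 arrays left out, and ran from -0.034 to 0.13 with 1 left out. Kitl turned to -0.017 after median centring and to -0.015 with array weights, and fell below the filter without E4bp4-/- replicate 1. No other member given with its lowest, median and highest values changed sign, and scaling moved the median of all genes by less than 0.1.

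Same-numbered arrays are separate mice, and the correlations of their deviations ran from -0.03 to 0.46, so the numbers were not taken as pairs. For E4bp4-/- replicates 1, 5 and 6 the best-matching E4bp4+/+ array had the same number, and for replicates 2, 3 and 4 another. Whether same-numbered arrays were processed together was not tested. With the replicate block 4 members were lower (11.8%, against 7.26% of all genes) and 2 higher (5.88%, against 10.6%) at an unadjusted p under 0.05. Signal near the filter limits Kitl, Lepr and Omd.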
